A study of Mus musculus with 6 samples.

Results

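The genes described here are mainly enzymes that place, remove or edit chemical marks on RNA, together with proteins that bind the m6A mark. They were chosen by symbol: the METTL, NSUN, TRMT, TRMO, FTSJ, ALKBH, YTH, IGF2BP, PUS, ADAR, ADAT, RBM15 and TET families, plus Wtap, Virma, Zc3h13, Cbll1 (also called Hakai), Fto, Dkc1, Nat10, Pcif1 and Zcchc4, restricted to protein-coding genes. The rule found 94 genes among the 55483 features of each table, and 83 of them had a mean of at least 1 FPKM over the 6 libraries and were tested. The rule reads symbols and gene class, not expression values. Some members it takes in, among them Tet1, Mettl9 and Mettl18, act on DNA or protein instead of RNA. RNA came from the whole oviduct of pregnant females 6 to 8 weeks old, mated with fertile males and killed on gestational day 3, counting the day of the vaginal plug as day 1. The 3 d/d libraries are labelled Mettl3 d/d, by mouse notation the deleted allele, and the 3 f/f libraries Mettl3 f/f, the loxP-flanked allele without deletion. The Cre driver, the exons removed and any pooling of animals were not stated in the labels, so which oviduct cells lost Mettl3 is not known here. Nor is it stated that each replicate is its own animal, and the p-values then describe the scatter of these libraries, which can be technical.

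N6-methyladenosine (m6A) is the most common internal mark of messenger RNA. It is written in the nucleus by a complex whose catalytic core is METTL3 bound to METTL14, it is bound by reader proteins that change splicing, translation or decay of the marked RNA, and it can be removed by the dioxygenases FTO and ALKBH5. Other enzymes of the group methylate, deaminate or isomerise bases of transfer and ribosomal RNA, which keeps translation accurate.

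Levels are in FPKM, a fragment count scaled for transcript length and library size, which allows comparison between genes. No read totals are in the tables. The steps between the lowest values implied 16700000 to 17800000 fragments per library. By this, 1 FPKM stands for 16.7 to 17.8 fragments per kilobase of length, counted after 265 nt were taken off each transcript. Oviduct identity was clear in both groups: Ovgp1, the oviductal glycoprotein gene, was between 2651 and 5059 FPKM in d/d and between 4264 and 5690 FPKM in f/f. The groups separated on the leading principal component (45.0% of variance), and on the next one (22.3%) d/d replicate 1 and f/f replicate 1 lay at opposite ends. Hoxa10, expressed towards the uterus, was lowest in those libraries within each group, at 4.24, 9.47 and 12.4 FPKM in d/d replicates 1 to 3 and 3.48, 26.5 and 25.1 FPKM in f/f replicates 1 to 3. Markers of other cells moved with the genotype labels. The 8 macrophage and myeloid markers were all higher in d/d past the threshold, with summed levels of 1040 to 1387 FPKM in d/d and 364 to 470 FPKM in f/f. Of 8 cell cycle markers tested 5 were higher and 0 lower, with sums over the 9 listed of 69.6 to 99.6 FPKM in d/d and 37.5 to 47.3 FPKM in f/f. Of 3 lymphocyte markers tested 1, the B cell gene Cd79b, was higher, with sums over the 6 listed of 22.5 to 36.9 FPKM in d/d and 10.9 to 17.7 FPKM in f/f. Markers of epithelium, stroma and smooth muscle went both ways: Epcam and Lum were higher and Krt18, Pdgfra and Des lower past the threshold. Of 2 steroidogenic markers tested 0 passed, with sums over the 3 listed of 1.77 to 2.36 FPKM in d/d and 3.17 to 21.1 FPKM in f/f. Of 8 multiciliated markers 0 passed, with sums of 98.6 to 476 FPKM in d/d and 334 to 838 FPKM in f/f. The lowest of these sums was in d/d replicate 1 and the highest in f/f replicate 1. The part of all these markers in the results below was not tested. The embryo marker Pou5f1 was listed at 0 in all 6 libraries, and the oocyte marker Zp3 in all but f/f replicate 1, where it was at 0.160 FPKM. In whole tissue, fewer cells of a type and less RNA per cell cannot be told apart.

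The share of the group that was called was close to that of all features, with more genes higher than lower in d/d. Past the threshold (limma on log2(FPKM + 1), Benjamini-Hochberg adjusted p under 0.05 over all 15438 features tested), 8 of the 83 tested genes rose and 1 fell in d/d. That is 10.8% of the group, where 11.0% of all features tested were called, 6.04% higher and 4.97% lower. The median log2 change of the group was 0.05, against -0.01 for all features. The changes were unevenly spread over the roles, with 6 of the 8 risers in the m6A writer complex and the YTH readers. The values of d/d all lay above those of f/f in 20 of the 83 genes (24.1%) and all below in 6 (7.23%), where 18.1% and 17.4% of all features did so (35.6% in either direction). At an unadjusted p under 0.05, 19 of the 83 differed, where 29.6% of all features did. Fold differences were modest, and 51 of the 83 genes had a log2 change smaller than 0.25 in size.

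**Figure D1:**
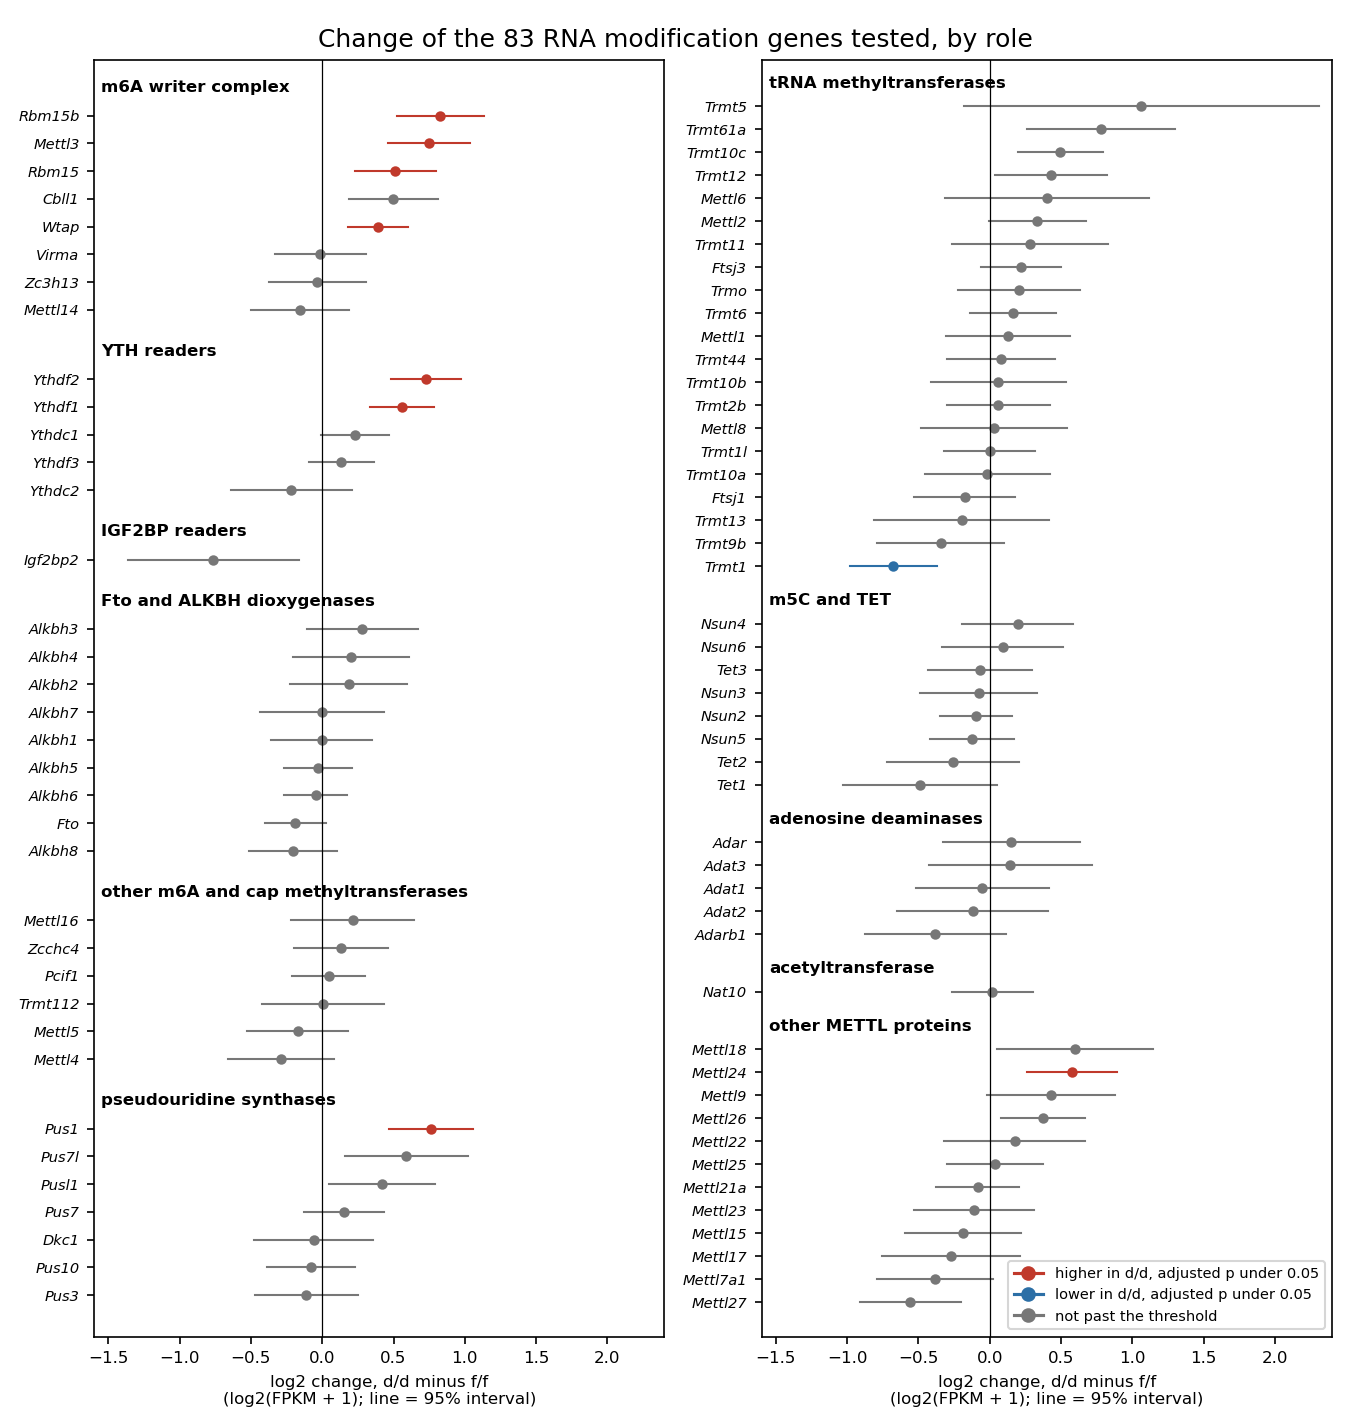
Log2 change (d/d minus f/f on the log2(FPKM + 1) scale, x axis) of each of the 83 tested genes, grouped by role, with the 95% interval of the limma fit as a line. Red points are the 8 genes higher in d/d and the blue point the 1 gene lower at an adjusted p under 0.05, and grey points did not pass, so the reader should see the red points gathered in the m6A writer complex and the YTH readers.

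The m6A writer complex held 4 risers among 8 genes tested and 0 that fell: Mettl3, Wtap, Rbm15 and Rbm15b. Of all features tested, 6.04% rose and 4.97% fell. The median log2 change of the 8 writer genes was 0.44. Mettl3 (ENSMUSG00000022160, chr14:52294841-52305128, minus strand, GRCm38) encodes the catalytic subunit. Its level was 19.8, 20.3 and 24.5 FPKM in d/d and 11.8, 12.1 and 13.2 FPKM in f/f, so every library labelled d/d was higher than every f/f library. The means were 21.5 ± 2.59 and 12.4 ± 0.736 FPKM in d/d and f/f (SD, n = 3 each), a 1.74-fold higher level in d/d, with a log2 change of 0.75 (SE 0.12, limma adjusted p = 0.0145). A two-sided exact permutation test gave p = 0.1, its lower limit with 3 libraries in each group. A value per gene does not show whether exons are missing, so this did not check the genotype labels, and each direction given here rests on them. Exons of Mettl3 share 933 nt with those of Tox4 on the opposite strand, which was at 16.5, 15.1 and 15.2 FPKM in d/d and 15.6, 17.5 and 16.9 FPKM in f/f. Without strand information, reads from that stretch cannot be assigned to either gene. When f/f replicate 2 was left out the call on Mettl3 was lost, at a log2 change of 0.74 and a limma adjusted p of 0.0722.

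Mettl14, the partner that holds the RNA for METTL3, did not follow it. Its level was 10.8, 7.52 and 8.69 FPKM in d/d and 9.90, 9.90 and 10.3 FPKM in f/f, and the groups overlapped (log2 change -0.16, 95% interval -0.50 to 0.19, limma adjusted p = 0.514). The ratio of Mettl3 to Mettl14 FPKM was 1.84, 2.70 and 2.82 in d/d and 1.19, 1.22 and 1.28 in f/f. The 3 d/d ratios all exceeded the 3 f/f ratios, with means of 2.45 ± 0.537 and 1.23 ± 0.0437 in d/d and f/f (SD, n = 3 each), a difference of 0.97 in mean log2 ratio (two-sided exact permutation p = 0.1, the smallest possible here). Leaving out single libraries gave differences between 0.86 and 1.17.

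The proteins that position the core were split in the same way. Wtap (chr17:12966796-12994169, minus strand), the adaptor that brings METTL3 and METTL14 to nuclear speckles, was the most abundant subunit transcript. Its level was 35.4, 33.4 and 35.8 FPKM in d/d and 26.1, 25.6 and 27.4 FPKM in f/f, a narrow spread in both groups and a 1.32-fold rise (log2 change 0.39, SE 0.09, limma adjusted p = 0.0399). The RNA-binding subunits RBM15 and RBM15B guide the complex to its targets. Rbm15b (chr9:106880918-106887428, minus strand) was at 21.03, 25.03 and 21.9 FPKM in d/d and 11.02, 11.95 and 14.1 FPKM in f/f, the largest change in the complex at 1.83-fold (log2 change 0.83, SE 0.13, limma adjusted p = 0.0140). Its paralog Rbm15 (chr3:107325421-107333673, minus strand) was lower in level, at 7.49, 6.96 and 7.12 FPKM in d/d and 4.97, 4.55 and 4.69 FPKM in f/f, and rose 1.52-fold (limma adjusted p = 0.0422). Cbll1, a RING-type ubiquitin ligase of the complex, was at 9.86, 9.81 and 11.2 FPKM in d/d and 7.99, 6.69 and 6.34 FPKM in f/f. These groups did not overlap, and the change missed the threshold (log2 change 0.50, limma adjusted p = 0.0573). It passed under quantile normalization (0.0483), under TMM scaling (0.0480) and without f/f replicate 1 (0.0435). Without any other single library it missed (limma adjusted p between 0.115 and 0.178). The scaffold gene Virma and the zinc finger gene Zc3h13 differed least. Virma was at 14.7, 16.04 and 12.2 FPKM in d/d and 13.2, 14.4 and 15.6 FPKM in f/f (95% interval of the log2 change -0.33 to 0.30). Zc3h13 was at 10.5, 13.96 and 13.9 FPKM in d/d and 13.5, 11.8 and 13.8 FPKM in f/f (95% interval -0.37 to 0.30). Exons of Rbm15b share 75 nt with Dcaf1 on the opposite strand, whose level ranged from 16.7 to 37.4 FPKM in d/d and from 9.35 to 45.6 FPKM in f/f.

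These calls were not equally stable. Among the writers, Mettl3 kept its call in 5 of the 6 fits that left out a single library and Rbm15b in 3 of 6, losing it without d/d replicate 2, d/d replicate 3 or f/f replicate 2 (adjusted p between 0.0518 and 0.0674). Wtap and Rbm15 kept theirs in 0 of 6, with limma adjusted p between 0.0579 and 0.138 for Wtap and between 0.0544 and 0.146 for Rbm15. Their log2 changes hardly moved, staying between 0.36 and 0.42 for Wtap and between 0.49 and 0.59 for Rbm15 over all 15 alternatives. With all 6 libraries, Rbm15 also missed with no filter (limma adjusted p = 0.0908). It missed too with a filter of 5 FPKM (0.0685) and after rescaling to protein-coding nuclear genes (0.0672). Wtap also missed without the variance trend (limma adjusted p = 0.0623). Fits with a library left out have fewer residual degrees of freedom, and the part of this in the lost calls was not tested. With all 6 libraries 11.0% of all features were called. Among fits lacking a single library, that share ran from 1.09% (f/f replicate 2 dropped) to 11.5% (f/f replicate 1 dropped).

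**Figure D2:**
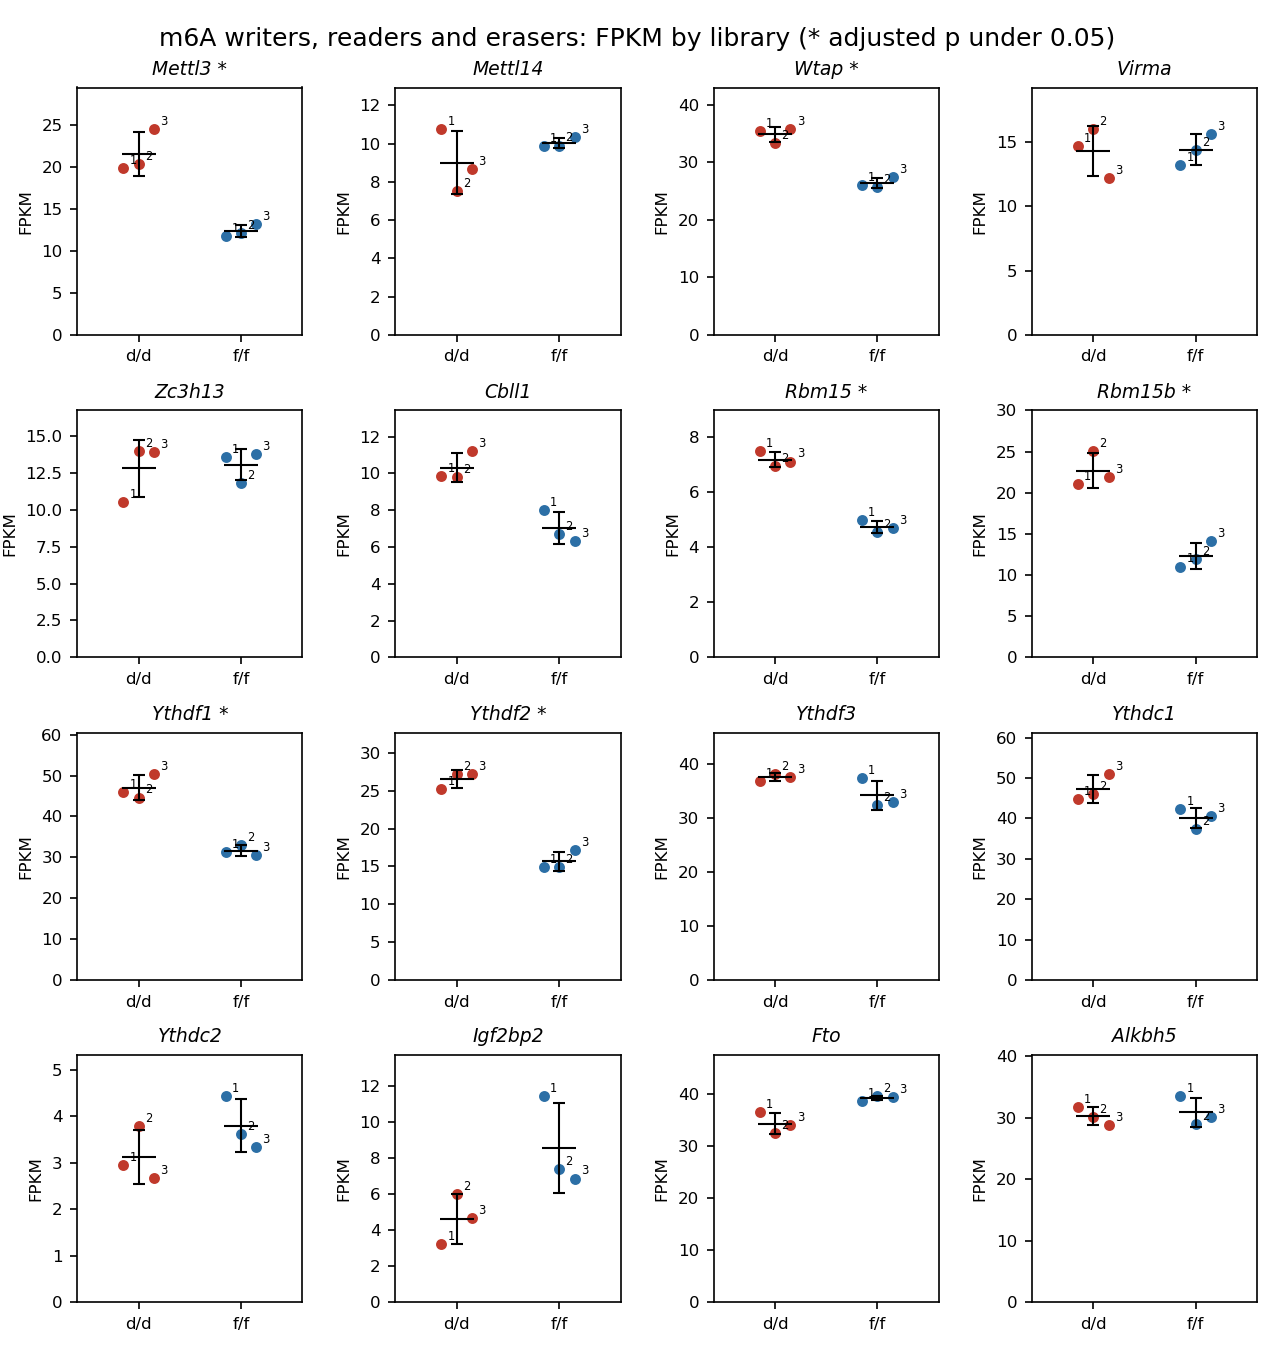
FPKM (y axis, from 0) of 16 genes of the m6A pathway in each library, d/d (red, left) and f/f (blue, right), with replicate numbers beside the points and bars for mean ± SD (n = 3 each). Asterisks mark an adjusted p under 0.05, and Mettl3, Rbm15b and Ythdf2 show separated groups while Mettl14, Virma and Zc3h13 overlap.

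The promoters of the 4 m6A genes with the largest rise on the log2(FPKM + 1) scale, and of Pus1 described further on, are printed to show whether genes that were higher together share short sequence elements. Each is 300 bases, running from 250 before to 50 after the annotated RefSeq start (GRCm38.p6), 5′ to 3′ on the gene's own strand. Capitals mark CACGTG (E-box), CCGGAAG (ETS) and ATGGCGG (YY1) on either strand (overlapping matches are capitalised together). For Pus1 the first of 2 listed starts was used. Under the annotation used for gene positions, the Rbm15b window lies wholly within the transcribed gene, whose start is further upstream. The windows are chr14:52305075-52305374, chr9:106887026-106887325, chr4:132212207-132212506, chr2:180920887-180921186 and chr5:110780566-110780865, all on the minus strand.
Mettl3: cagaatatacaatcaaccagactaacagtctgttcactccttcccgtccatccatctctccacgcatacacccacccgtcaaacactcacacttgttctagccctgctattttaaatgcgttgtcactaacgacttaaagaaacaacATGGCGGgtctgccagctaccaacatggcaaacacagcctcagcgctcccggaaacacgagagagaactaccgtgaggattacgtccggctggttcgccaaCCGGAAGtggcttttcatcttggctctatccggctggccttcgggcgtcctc
Rbm15b: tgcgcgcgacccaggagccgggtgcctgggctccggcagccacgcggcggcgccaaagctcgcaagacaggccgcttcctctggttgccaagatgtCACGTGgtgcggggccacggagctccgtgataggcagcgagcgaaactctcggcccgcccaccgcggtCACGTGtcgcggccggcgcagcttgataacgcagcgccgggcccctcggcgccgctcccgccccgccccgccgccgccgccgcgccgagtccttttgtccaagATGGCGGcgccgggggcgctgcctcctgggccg
Ythdf2: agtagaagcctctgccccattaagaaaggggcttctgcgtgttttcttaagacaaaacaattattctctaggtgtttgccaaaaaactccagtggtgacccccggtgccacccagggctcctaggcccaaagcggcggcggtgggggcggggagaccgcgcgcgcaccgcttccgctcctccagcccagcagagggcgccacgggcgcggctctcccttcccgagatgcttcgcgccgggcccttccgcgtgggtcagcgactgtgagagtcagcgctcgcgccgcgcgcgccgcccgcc
Ythdf1: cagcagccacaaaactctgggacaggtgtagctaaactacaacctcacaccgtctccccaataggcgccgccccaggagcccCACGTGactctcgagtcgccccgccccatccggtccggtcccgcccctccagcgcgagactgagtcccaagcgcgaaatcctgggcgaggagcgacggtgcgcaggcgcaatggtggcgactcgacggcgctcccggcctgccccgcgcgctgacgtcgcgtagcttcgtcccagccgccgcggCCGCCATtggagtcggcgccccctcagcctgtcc
Pus1: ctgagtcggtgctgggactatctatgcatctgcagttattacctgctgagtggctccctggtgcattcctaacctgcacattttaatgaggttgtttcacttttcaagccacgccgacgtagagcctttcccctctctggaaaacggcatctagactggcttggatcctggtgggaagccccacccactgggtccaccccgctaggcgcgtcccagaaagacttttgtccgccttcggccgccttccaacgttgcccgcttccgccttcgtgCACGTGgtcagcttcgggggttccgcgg

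No single element was present in all of these windows. The E-box stood in the promoters of Rbm15b, Ythdf1 and Pus1, and in 7.24% of all 27025 promoters listed. It was found in 12.8% of member promoters and 9.98% of those of features tested. The YY1 element stood in those of Mettl3, Rbm15b and Ythdf1, and in 4.19% of all promoters listed. It was found in 17.9% of the 78 group members with a promoter listed, against 7.66% of the promoters of features tested. The ETS element of Mettl3 was found in 26.9% of member promoters and 17.1% of those of features tested. The E2F elements TTTCCCGC and TTTGGCGC were each in 0 or 1 of the 8 promoters of risers, with the 1 match in Rbm15b, and the cyclic AMP element TGACGTCA was in 0. GGGCGG (SP/KLF) was in 6 of 8 and 63.2% of the promoters of features tested, and CCAAT in 3 of 8 and 38.3%. No element searched contains another, and Ythdf2 held none of the 3 capitalised ones. A match is a description of letters, not a binding site.

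A frequent sequence at m6A sites is GGAC followed by U, written GGACT in DNA letters. Other forms of the motif were not counted. The reference coding transcript of Mettl3 (2025 nt) held 4 such stretches, 3 in the coding sequence and 1 after the stop codon. They are shown with GGACT in capitals, by the position of its first base from the transcript start.
Position 186: aaacagctGGACTcgcttcgc
Position 225: cggaagcaGGACTctgggcac
Position 1635: cagggcctGGACTgcgatgtg
Position 1944: ccttaagaGGACTgtttacgc
Genes that changed were not unusual in this respect. The median was 1.07 GGACT per kilobase in the 9 called genes, 0.999 in the 74 tested and not called, and 1.06 in 13339 features with a coding transcript. Trmt1 had the highest density among the 9, at 3.12 per kilobase, and Mettl24 held 0.

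Of 5 YTH readers, 2 rose and 0 fell, where 6.04% of all features rose and 4.97% fell. Ythdf2 (chr4:132184912-132212303, minus strand), which recruits deadenylases to marked messages, was at 25.2, 27.3 and 27.2 FPKM in d/d and 14.9, 14.9 and 17.1 FPKM in f/f. The groups were well apart, the means 26.5 ± 1.18 and 15.7 ± 1.26 FPKM in d/d and f/f (SD, n = 3 each), and the rise 1.69-fold (log2 change 0.73, SE 0.10, limma adjusted p = 0.0115). Ythdf1 (chr2:180904377-180920949, minus strand), linked to translation of marked messages, was at 46.0, 44.6 and 50.4 FPKM in d/d and 31.2, 33.0 and 30.5 FPKM in f/f, a 1.49-fold rise (log2 change 0.56, SE 0.09, limma adjusted p = 0.0171). The third paralog, Ythdf3, was at 36.8, 38.2 and 37.6 FPKM in d/d and 37.3, 32.4 and 32.9 FPKM in f/f, with overlapping groups (log2 change 0.13, 95% interval -0.10 to 0.36, limma adjusted p = 0.399). The d/d level of Ythdf2 stayed below those of Ythdf1 and Ythdf3, as in f/f. Ythdc1, the nuclear reader, had the highest mean of the family over all libraries (43.7 FPKM), at 44.7, 46.1 and 51.1 FPKM in d/d and 42.4, 37.4 and 40.5 FPKM in f/f. All d/d values lay above, by 1.18-fold in the means, and the difference missed the threshold (limma adjusted p = 0.180). Ythdc2, a helicase best known from meiosis, was at 2.95, 3.78 and 2.67 FPKM in d/d and 4.43, 3.61 and 3.33 FPKM in f/f (limma adjusted p = 0.460). Ythdf2 kept its call in 5 of the 6 fits that left out a library, missing it without f/f replicate 2 (adjusted p = 0.0598). Ythdf1 kept it in 3 of 6, missing it without d/d replicate 3 (0.0540), f/f replicate 2 (0.0644) or f/f replicate 3 (0.0664).

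The IGF2BP proteins bind messages, m6A-marked ones among them, and stabilise them. Igf2bp2 was the only one of the 3 above the filter, at 3.23, 5.98 and 4.65 FPKM in d/d and 11.4, 7.38 and 6.85 FPKM in f/f. All d/d values were below all f/f values, with f/f replicate 1 the highest, and the difference missed the threshold (log2 change -0.76, SE 0.25, limma adjusted p = 0.1005). Igf2bp3 was low, at 0.809, 1.77 and 0.247 FPKM in d/d and 0.362, 0.144 and 0.446 FPKM in f/f. Of its 8159 exonic nt, 1529 lie in exons of Malsu1 on the opposite strand. Malsu1 was at 18.2, 25.1 and 22.3 FPKM in d/d and 22.4, 13.6 and 18.5 FPKM in f/f. Igf2bp1 was at most 0.0138 FPKM and listed at 0 in d/d replicate 3 and f/f replicate 3. At the implied depth, 1 fragment spread over all 9682 exonic bases of Igf2bp1 would be 0.00598 FPKM. Its lowest values above 0, at 0.00690 to 0.00738 FPKM, were of that order.

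The erasers and their relatives showed no call, with 0 of 9 higher and 0 lower (limma, 0 at an unadjusted p under 0.05), and a median log2 change of -0.01. Of all features, 11.0% were called and 29.6% had an unadjusted limma p under 0.05. Fto was at 36.5, 32.5 and 34.0 FPKM in d/d and 38.7, 39.6 and 39.4 FPKM in f/f. Every d/d value was lower, by little (log2 change -0.19, 95% interval -0.40 to 0.03, limma adjusted p = 0.216). Alkbh5 was at 31.7, 30.1 and 28.9 FPKM in d/d and 33.5, 29.0 and 30.2 FPKM in f/f, overlapping throughout (95% interval -0.27 to 0.21). The log2 changes of the other ALKBH genes, which act on DNA, tRNA or protein, ran from -0.20 for Alkbh8 to 0.28 for Alkbh3. Alkbh3 was at 22.3, 20.1 and 27.3 FPKM in d/d and 16.7, 22.8 and 17.4 FPKM in f/f, with overlap (limma adjusted p = 0.301). Among the methyltransferases that place m6A or its cap form outside the main complex, 0 of 6 were called (limma, 0 at an unadjusted p under 0.05). Pcif1, the cap-specific enzyme, was the most abundant, at 25.9, 29.96 and 31.6 FPKM in d/d and 27.5, 27.5 and 29.4 FPKM in f/f (limma adjusted p = 0.816). Mettl4 was at 5.98, 6.01 and 5.32 FPKM in d/d and 8.86, 6.86 and 6.29 FPKM in f/f, without overlap (log2 change -0.29, limma adjusted p = 0.264). Mettl16, Mettl5 and Zcchc4, which methylate small nuclear and ribosomal RNA, had log2 changes of 0.21, -0.17 and 0.13. Trmt112, the partner of METTL5, was at 10.2, 8.85 and 14.6 FPKM in d/d and 10.9, 10.9 and 11.03 FPKM in f/f. Its level is uncertain, because a processed pseudogene, Trmt112-ps2, was listed at 147 to 159 FPKM in d/d and 109 to 170 FPKM in f/f. In addition, 409 of the 1233 exonic nt of Trmt112 lie in exons of Prdx5 on the opposite strand.

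Pseudouridine synthases turn uridine into its isomer pseudouridine, and 1 of 7 rose (14.3% called, against 11.0% of all features). Pus1 (chr5:110773667-110780659, minus strand), which modifies tRNA in nucleus and mitochondria, was at 16.4, 16.2 and 15.6 FPKM in d/d and 7.96, 8.95 and 10.4 FPKM in f/f. The d/d values were nearly equal and all higher, a 1.77-fold rise (log2 change 0.76, SE 0.12, limma adjusted p = 0.0148). It kept the call in 2 of 6 fits with a library left out, which left out f/f replicate 1 or 3, and lost it without d/d replicate 1, 2 or 3 or f/f replicate 2 (limma adjusted p between 0.0504 and 0.0723). Exons of Pus1 share 519 nt with Gm26515 and 138 nt with Gm15559 on the opposite strand. Pus7l was at 4.95, 3.53 and 3.83 FPKM in d/d and 2.54, 1.98 and 2.62 FPKM in f/f, and Pusl1, a mitochondrial enzyme, at 14.1, 14.9 and 20.1 FPKM in d/d and 12.6, 10.7 and 12.3 FPKM in f/f. Neither pair of groups overlapped, and neither passed (limma adjusted p = 0.0861 for Pus7l and 0.133 for Pusl1). Dkc1, the catalytic protein of the H/ACA particles that guide pseudouridine in ribosomal RNA, was at 13.8, 20.8 and 15.4 FPKM in d/d and 16.7, 15.3 and 19.7 FPKM in f/f, with overlap (limma adjusted p = 0.851). Pus7, Pus3 and Pus10 had log2 changes between -0.11 and 0.15. Exons on the opposite strand cover 2618 of the 2972 exonic nt of Pus3 (Hyls1) and 697 of the 2329 of Pusl1 (Ints11).

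Among the 21 tested genes of tRNA methylation, 0 rose and 1 fell (4.76% called, against 11.0% of all features). Trmt1 (chr8:84686307-84699808, plus strand), which makes dimethylguanosine in tRNA, was the most abundant of them and the only member of the group to fall. Its level was 28.9, 23.7 and 26.0 FPKM in d/d and 38.0, 48.7 and 41.0 FPKM in f/f. The groups did not overlap and the level in d/d was 0.616 of that in f/f (log2 change -0.68, SE 0.13, limma adjusted p = 0.0241). The call held without d/d replicate 1 or f/f replicate 1 and was lost without any other single library (adjusted p between 0.0751 and 0.0889). Its paralog Trmt1l averaged 17.5 ± 1.56 FPKM in d/d and 17.6 ± 2.42 FPKM in f/f (SD, n = 3 each; limma adjusted p = 0.998). Trmt61a, the catalytic subunit of the TRMT6 enzyme for methyladenosine of tRNA, was at 12.5, 15.97 and 17.4 FPKM in d/d and 6.38, 11.4 and 8.04 FPKM in f/f, without overlap (log2 change 0.78, SE 0.22, limma adjusted p = 0.0669). Its partner Trmt6 was at 10.4, 8.85 and 8.73 FPKM in d/d and 7.97, 7.68 and 8.98 FPKM in f/f, and overlapped (log2 change 0.16). Trmt10c, a subunit of mitochondrial RNase P, was at 9.83, 10.8 and 11.9 FPKM in d/d and 6.87, 7.31 and 8.04 FPKM in f/f, without overlap (log2 change 0.50, limma adjusted p = 0.0517). It passed under TMM scaling (0.0482) and with a filter of 5 FPKM (0.0488). In every fit that left out a single library it missed (limma adjusted p between 0.0799 and 0.159).

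The largest log2 change in the group, that of Trmt5, rested on a single library. Trmt5, which methylates guanosine beside the anticodon, was at 9.57, 40.5 and 9.41 FPKM in d/d and 6.53, 6.23 and 8.20 FPKM in f/f (log2 change 1.06, SE 0.52, limma adjusted p = 0.229). Mettl6, a tRNA methylcytidine enzyme, was also highest in d/d replicate 2, at 9.22, 20.4 and 9.67 FPKM in d/d and 10.9, 8.91 and 7.66 FPKM in f/f (limma adjusted p = 0.420). Without d/d replicate 2 the log2 changes were 0.40 for Trmt5 and 0.05 for Mettl6. Trmt12, Mettl2 and Ftsj3, the last of which acts on ribosomal RNA, were higher in every d/d library without passing, at log2 changes of 0.43, 0.33 and 0.22. Trmt2a was listed at 0 in all 6 libraries. Its exons overlap those of Ranbp1 and Dgcr8, which are used in most cells and were listed at 0 in all 6 libraries too, so these zeros can be failed estimates.

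**Figure D3:**
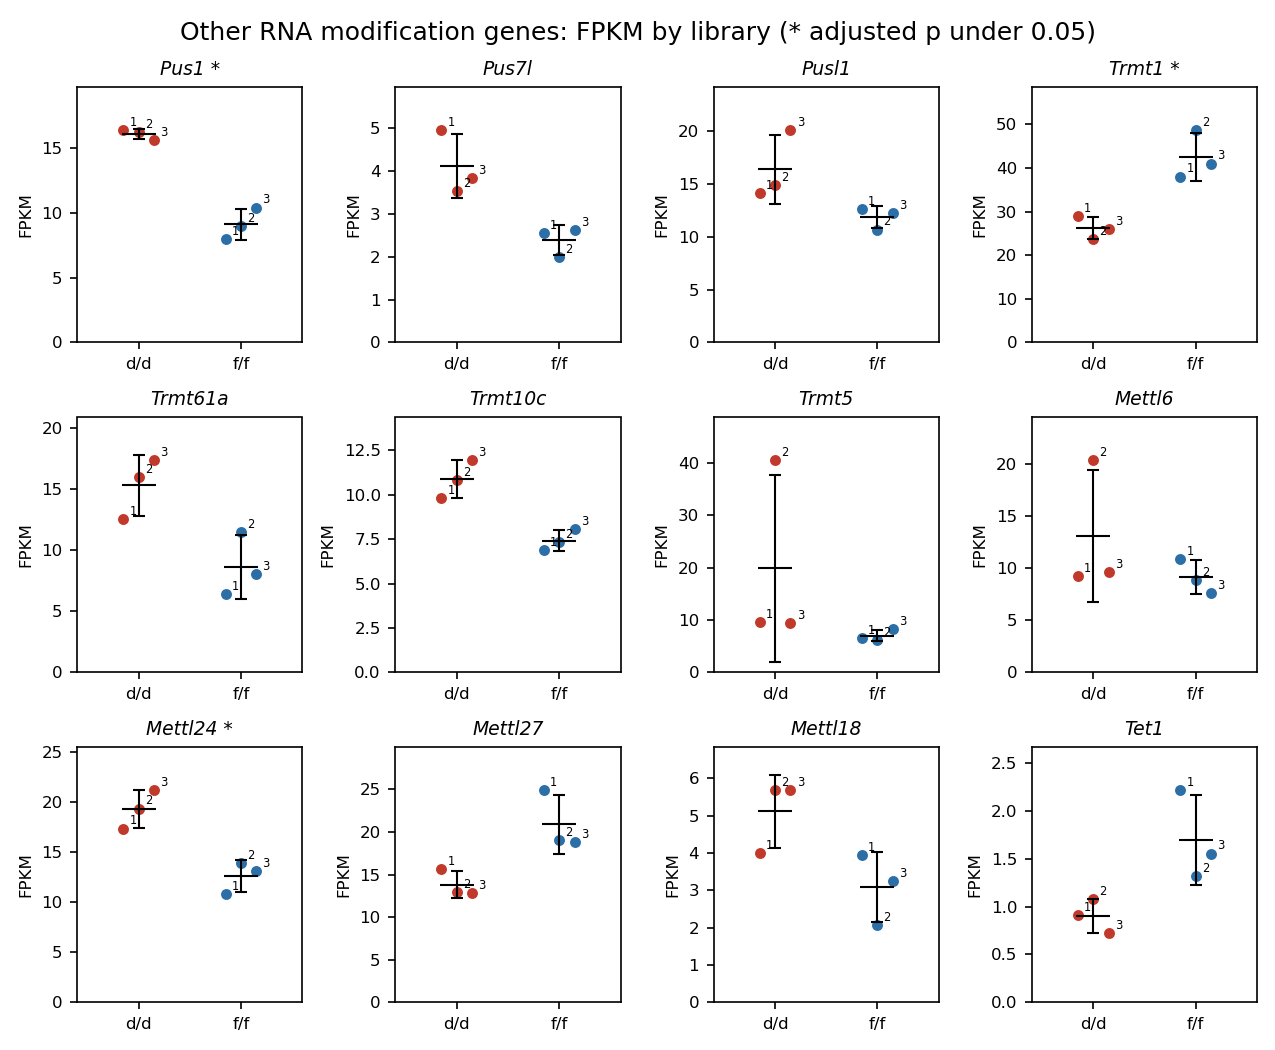
FPKM (y axis, from 0) of 12 other genes of the group in each library, d/d (red, left) and f/f (blue, right), with replicate numbers beside the points and bars for mean ± SD (n = 3 each). Asterisks mark an adjusted p under 0.05, Pus1 and Mettl24 being higher and Trmt1 lower in d/d, and the single high point of Trmt5 is d/d replicate 2.

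Cytosine methylation and oxidation genes gave 0 calls among 8 tested (limma, 0 at an unadjusted p under 0.05). The shares of all features were 11.0% called and 29.6% at an unadjusted p under 0.05. Nsun2, the main methylcytosine enzyme of tRNA and messages, was at 32.3, 36.7 and 39.5 FPKM in d/d and 37.2, 38.9 and 39.7 FPKM in f/f (limma adjusted p = 0.584). Tet1, which oxidises methylcytosine in DNA, was at 0.909, 1.08 and 0.727 FPKM in d/d and 2.22, 1.31 and 1.55 FPKM in f/f. All d/d values were lower, and the difference missed the threshold (log2 change -0.49, SE 0.23, limma adjusted p = 0.205). Tet2 and Tet3 overlapped between groups, with log2 changes of -0.26 and -0.07. Nsun7 lay under the filter, at 0.577, 0.173 and 0.140 FPKM in d/d and 0.856, 0.616 and 0.553 FPKM in f/f. The adenosine deaminases also gave 0 calls among 5 tested (limma, 0 at an unadjusted p under 0.05). Adar, which edits adenosine to inosine in double-stranded RNA, was at 27.9, 27.8 and 20.3 FPKM in d/d and 29.5, 19.8 and 19.3 FPKM in f/f. Adarb1 was at 3.79, 5.81 and 3.81 FPKM in d/d and 7.17, 6.30 and 4.83 FPKM in f/f (log2 change -0.38, limma adjusted p = 0.268). Adat1, Adat2 and Adat3 had log2 changes between -0.12 and 0.14. Of the 1648 exonic nt of Adat3, 1516 lie in exons of Gm49322 on the same strand. Nat10, which acetylates cytidine, was at 7.53, 8.35 and 7.90 FPKM in d/d and 7.34, 7.55 and 8.57 FPKM in f/f (limma adjusted p = 0.934).

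Of 12 other METTL genes tested, 1 rose and 0 fell (8.33% called, against 11.0% of all features). Mettl24 (chr10:40683282-40811083, plus strand) was at 17.4, 19.4 and 21.2 FPKM in d/d and 10.8, 13.9 and 13.2 FPKM in f/f, a 1.53-fold rise (log2 change 0.58, SE 0.13, limma adjusted p = 0.0418). It kept the call in 0 of 6 fits with a library left out (adjusted p between 0.0652 and 0.121). With all 6 libraries it also missed with no filter (limma adjusted p = 0.0679) and without the variance trend (0.0520). Mettl27 was at 15.7, 12.9 and 12.9 FPKM in d/d and 24.9, 19.0 and 18.8 FPKM in f/f, without overlap (log2 change -0.56, limma adjusted p = 0.0586). It passed with a filter of 5 FPKM (0.0494) and missed in every fit that left out a single library (limma adjusted p between 0.0798 and 0.158). Mettl26 was at 38.6, 30.02 and 38.8 FPKM in d/d and 27.03, 27.4 and 27.3 FPKM in f/f, without overlap (log2 change 0.37, limma adjusted p = 0.101). Mettl18, a histidine methyltransferase acting on a ribosomal protein, was at 3.99, 5.67 and 5.68 FPKM in d/d and 3.94, 2.07 and 3.25 FPKM in f/f (log2 change 0.60, limma adjusted p = 0.144). Mettl7a1 had the highest mean level of the whole group (93.2 FPKM over all libraries), at 64.9, 94.8 and 82.96 FPKM in d/d and 117.8, 109.2 and 89.3 FPKM in f/f, with overlap (log2 change -0.39, limma adjusted p = 0.190). Mettl9, another histidine methyltransferase, was at 66.5, 71.6 and 101.2 FPKM in d/d and 68.9, 53.6 and 52.5 FPKM in f/f (limma adjusted p = 0.183). Below the filter lay Mettl7a2, Mettl7a3, Mettl7b, Mettl21c and Mettl21e, with means over the 6 libraries of 0.00659 to 0.346 FPKM, and Mettl11b, listed at 0 in every library. Adarb2 was listed at 0 in 5 libraries and at 0.0156 FPKM in f/f replicate 3.

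A list of 82 further genes of RNA modification, its partners and readers, chosen with earlier results known, gave a like picture. Of the 81 present and tested, 8 rose and 1 fell, which is 11.1% against 11.0% of all features, with a median log2 change of 0.01. Mrm3, a methyltransferase of mitochondrial ribosomal RNA, was at 6.42, 8.57 and 8.40 FPKM in d/d and 3.30, 2.96 and 2.399 FPKM in f/f, a 2.70-fold rise (log2 change 1.18, limma adjusted p = 0.0119). Nhp2 and Nop10, partners of dyskerin in H/ACA particles, rose 1.68-fold and 1.597-fold, while Dkc1 itself overlapped between groups. Gar1, the remaining core protein of these particles, was at 26.7, 31.2 and 18.5 FPKM in d/d and 15.7, 12.2 and 22.3 FPKM in f/f, with overlap (limma adjusted p = 0.188). Lcmt2, a wybutosine enzyme, rose 2.03-fold, Kti12 and Dph3, which serve the Elongator complex, 1.95-fold and 1.63-fold, the cap methyltransferase gene Cmtr2 1.66-fold and Nop2, a methylcytosine enzyme of ribosomal RNA, 1.38-fold. Rbmx, which binds RNA opened by m6A, was at 16.1, 14.4 and 15.4 FPKM in d/d and 22.9, 26.9 and 24.0 FPKM in f/f and fell (log2 change -0.65, limma adjusted p = 0.0156). Without f/f replicate 2, 0 of these 81 genes passed, and 2 to 5 rose without d/d replicate 1, 2 or 3 or f/f replicate 3.

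Counts of calls depended on single libraries, in the group and among all features. Without d/d replicate 1, 4 of the group rose and 1 fell, with 5.65% of all features called. Without d/d replicate 2, 3 rose and 0 fell (3.81% of all features), and without d/d replicate 3, 2 rose and 0 fell (3.63%). Without f/f replicate 1, 6 rose and 1 fell (11.5%), and without f/f replicate 3, 4 rose and 0 fell (3.37%). Without f/f replicate 2, 0 rose and 0 fell (1.09%). In that limma fit 16 of the 83 had an unadjusted p under 0.05, and the share of all features was not counted. With all 6 libraries 19 of the 83 did, against 29.6% of all features. Without d/d replicate 1 and f/f replicate 1 together, 3 rose (Mettl3, Rbm15b and Ythdf2) and 1 fell (Trmt1), and 9.05% of all features were called.

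**Figure D4:**
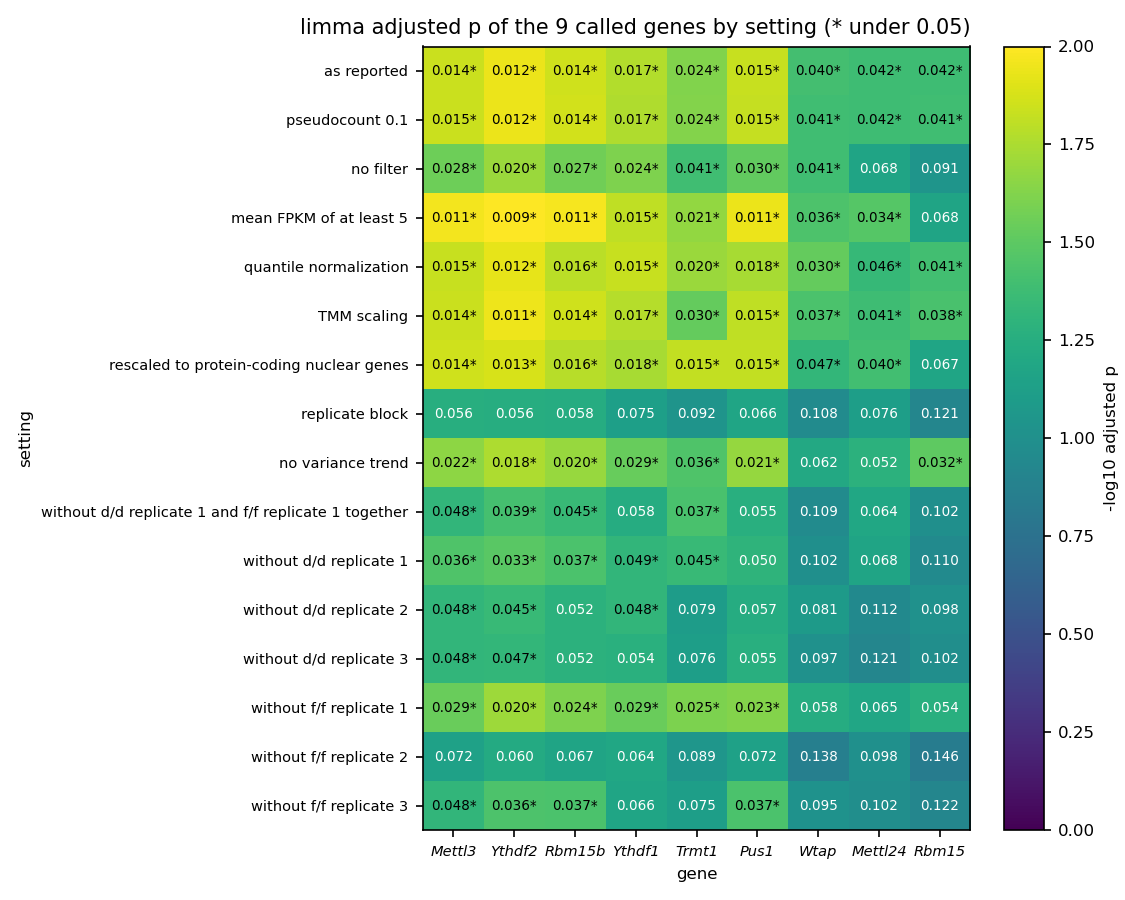
Benjamini-Hochberg adjusted p from limma for the 9 called genes (columns) under each setting (rows), colour showing its negative log10 and asterisks values under 0.05. Mettl3 and Ythdf2 pass in 13 of 15 alternatives and Rbm15 in 4.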

How the data were processed

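Per the labels' protocols, TRIzol was used for extraction and the TruSeq RNA kit for the libraries. The unit of the deposited values was inferred to be FPKM from Cufflinks 2.2.1, named with HISAT2 2.2.1 and the builds mm9 and mm10 per the submitters' processing notes. For annotation, filters and strand setting the sources used here give nothing. Depth was inferred from low values of single-transcript genes, of which 91.6% to 95.2% lay within 1% of the step of 1 fragment. Rows sharing a symbol (114 symbols, 0 members) were summed. Positions and gene classes came from GENCODE release M21 (GRCm38), with 55223 of 55483 identifiers matched, and promoters from RefSeq (78 of 94 members).

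Features with a mean of at least 1 FPKM were tested by limma 3.58.1 (R 4.3.3) as log2(FPKM + 1), with genotype as the only term, trended eBayes variances, two-sided p-values and Benjamini-Hochberg adjustment over 15438 features. The added 1 shrinks log2 changes of low genes, so folds were taken from group means without it. The fit was tested on simulated data. Named were all m6A writers, the YTH and IGF2BP genes, Fto, Alkbh5, called genes, the most abundant and most changed of each role, and non-overlapping genes with a log2 change of at least 0.5. Other members named complete a count or pair with these and were chosen after their values were seen. Members and lists were chosen with earlier results of these data known. The alternatives were a pseudocount of 0.1, other filters, quantile and TMM scaling (written in R), rescaling to protein-coding nuclear genes, no variance trend, the replicate number as a block, and libraries left out.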

Additional observations from a re-analysis of the deposited data

How the results depend on the processing

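Over the 15 alternatives each of the 9 called genes kept its direction. With all 6 libraries and no block, the rises numbered 6 to 10 and the falls 1, or 2 with a filter of 5 FPKM. Leaving out single libraries gave 0 to 6 rises and 0 or 1 falls in the group, 0 to 8 rises and 0 or 1 falls in the further list, and 169 to 1780 calls among all features, against 1701. Leaving out d/d replicate 1 and f/f replicate 1 together gave 3 rises in the group, and 5 rises and 2 falls in the further list. With no filter 1107 features were called. The log2 change of Mettl3 was between 0.66 and 0.80 over the alternatives, and 0.74 without f/f replicate 2, where its call was lost. Correlations of same-numbered deviations were -0.22, -0.06 and 0.0027 for replicates 1, 2 and 3, and those of differently numbered libraries ran from -0.28 to 0.28. With 3 libraries in each group these cannot show whether same-numbered libraries shared a litter, day or batch. The labels do not say. With the replicate block 0 rose and 0 fell in the group, 1 rose and 0 fell in the further list, and 276 features were called. Mettl3 then had a log2 change of 0.75 (limma adjusted p = 0.0559). In this limma fit 17 of the 83 had an unadjusted p under 0.05. The share of all features that did so was not counted. The cause of these differences was not tested. The 11 members under the filter of 1 FPKM were not tested.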

Other observations

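Symbols of the chosen families that the annotation does not class as protein-coding were left out of the counts. Trmt61b, classed as antisense in the annotation used, was at 5.43, 4.22 and 9.76 FPKM in d/d and 6.49, 7.58 and 8.89 FPKM in f/f. Mettl5os was at 0.293, 1.78 and 0.295 FPKM in d/d and 0.142, 1.55 and 1.02 FPKM in f/f. Alkbh3os1 was at most 0.225 FPKM in d/d and 0.272 FPKM in f/f.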
